A study of Homo sapiens with 4 samples.

Results

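The ETS factors are a family of transcription factors that share a winged helix DNA-binding domain and bind sites built around the letters GGAA. Several of them carry the ERK signal to the genome, since ERK phosphorylates ELK1, ELK3, ETS1, and ETS2 directly, and transcription of ETV1, ETV4, and ETV5 is commonly used as a readout of ERK activity. Here, 10 members were chosen by symbol, namely ETV1, ETV4, ETV5, ETS1, ETS2, ELK1, ELK3, ELF1, ELF3, and EHF, and all 10 were found among the 20372 genes of the deposited table. They were compared between 6 h and 24 h of exposure to BLU6864 in TPC1 cells.

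TPC1 is an established human papillary thyroid cancer line that expresses the CCDC6-RET fusion, and BLU6864 is a selective RET inhibitor. RNA was sequenced from cells exposed to BLU6864 for 6 h (BLU6H, 2 libraries) or for 24 h (BLU24H, 2 libraries). All 4 libraries are from treated cells of the same line, so the length of exposure cannot be told apart from the hours spent in culture. The labels give the dose as 100 µM, whereas the methods give the same figure in nanomolar units. The 24 h libraries alone are marked as a re-analysis in the labels, so anything behind that mark cannot be told apart from time. Nothing in the labels says that the libraries of a time point came from separate cultures, so P values measure only the spread between these libraries, which may be technical.

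Total counts lay between 23917056 and 27457040 per library, and 12876 genes passed the filter on low counts. The libraries of a time point differed from each other by more than sampling noise, as a chi-square statistic divided by its degrees of freedom was 7.87 for the 24 h pair and 10.3 for the 6 h pair. Of 7 thyroid follicular cell markers, the thyroid transcription factor PAX8 was abundant, with a raw count of at least 19124 in each library, whereas NKX2-1 and TSHR had no count in any library. FOXE1, another thyroid transcription factor, was called higher (log2 fold change 0.84, adjusted P = 1.37e-07) and thyroglobulin (TG) was called lower (-1.09, adjusted P = 2.77e-07). Of 10 markers of white blood cells, 6 had 3 counts or fewer in all libraries, and the summed normalized count was between 67.2 and 74.5 at 6 h and between 103 and 106 at 24 h. Most of it was CD14, which had 47 and 41 raw counts at 6 h and 85 and 91 at 24 h and was called higher (log2 fold change 0.95, adjusted P = 0.000244). FCER1G, the other marker of this list that passed the filter, pointed down, with 13 and 19 raw counts at 6 h and 7 and 11 at 24 h. It was not called (log2 fold change -0.87, adjusted P = 0.0844). The summed count of the endothelial markers lay between 768 and 811 at 6 h and between 343 and 363 at 24 h. The fall was mainly in KDR, which was called lower (log2 fold change -3.97, adjusted P = 4.83e-17). FLI1 went the other way, from 263 and 239 normalized counts to 296 and 301 (log2 fold change 0.25, adjusted P = 0.0521). ERG was at -0.28 (adjusted P = 0.521), and neither FLI1 nor ERG was called. CDH5 had at most 1 count in each library, and PECAM1 was not among the deposited genes. ERG, FLI1, SPI1, and SPIB stand both in these marker lists and in the ETS family. The part of these markers in the results was not tested.

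All 10 ETS members passed the filter, and EHF had the fewest counts. Normalized counts are raw counts scaled by TMM to libraries of equal size, that of the mean library. A gene was called when its log2 fold change, 24 h against 6 h, exceeded 0.5 in size. The unadjusted P also had to be under 0.01 in edgeR's quasi-likelihood test. The methods state these limits for falls only (under -0.5) and with DESeq2, and they were applied here in both directions. ETS2 alone among the members was called higher at 24 h and EHF alone was called lower. In the background of all genes tested, 17.4% were called higher and 17.7% lower, so 1 of 10 in each direction is not above the background. With a Benjamini-Hochberg adjusted P under 0.05 and no limit on the fold change, 3 members were higher (ETS2, ELF3, and ELK3) and 3 lower (EHF, ETV4, and ELF1), where the background was 33.0% higher and 32.6% lower. The median log2 fold change of the members was 0.012, beside 0.0029 over all genes tested.

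**Figure D1:**
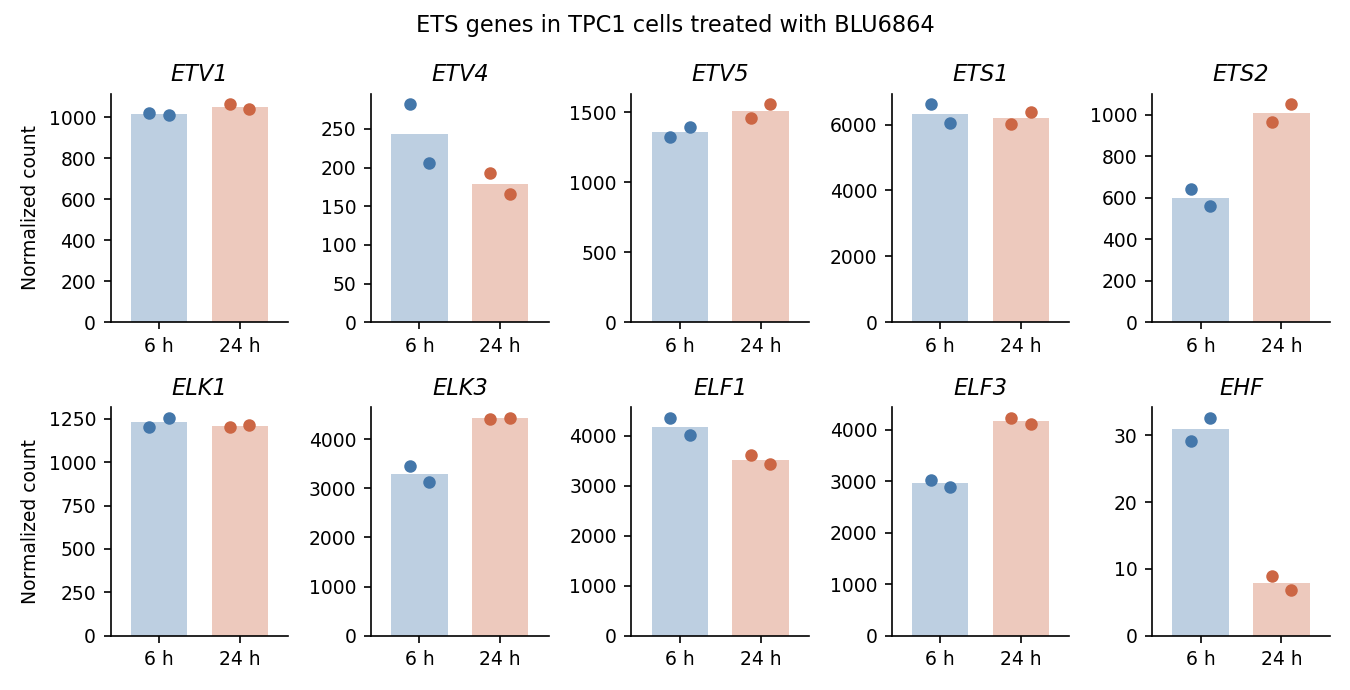
Normalized count of each of the 10 ETS genes (y axis, starting at 0, with its own scale in each panel) at 6 h and 24 h of BLU6864. Points are the 2 libraries of a time point and bars their mean. The libraries of the time points stand apart in 8 genes, overlapping in ETS1 and ELK1. Over all genes tested, both 24 h libraries lay above both 6 h libraries in 41.0% and below both in 40.8%, so 8 of 10 is not above the background.

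ETS2, a direct ERK substrate and activator, rose. Its normalized count was 639 and 559 after 6 h and 965 and 1049 after 24 h. Both 24 h libraries lay above both 6 h libraries, as they did in 41.0% of all genes tested. The change was 0.75 on the log2 scale (standard error 0.0871, adjusted P = 2.54e-08), a 1.68-fold difference with a 95% interval from 1.49 to 1.91. This change was larger in size than that of 76.6% of the genes tested, and the gene stayed past the cutoffs under each of the 10 other settings that were run. ETS2 (ENSG00000157557) lies on chromosome 21 of hg19, from 40177231 to 40196879, and no other gene of the table overlaps it.

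EHF, an ETS factor of epithelial cells that is best known from glandular and barrier epithelia, fell from a level that was already low. It had 27 and 34 raw counts at 6 h and 9 and 7 at 24 h, or 29.1 and 32.6 against 8.97 and 6.81 normalized counts. Both 24 h libraries lay below both 6 h libraries, as in 40.8% of all genes tested. The exact Poisson 95% intervals, which cover counting error only, were 19.2 to 42.4 and 22.6 to 45.6 normalized counts at 6 h, and 4.10 to 17.0 and 2.74 to 14.0 at 24 h. The intervals of the time points did not overlap. The log2 fold change was -1.96 (standard error 0.38, adjusted P = 6.58e-05), with a 95% interval from -2.74 to -1.18. EHF was not tested under a stricter filter of at least 10 counts in every library. A bulk library cannot tell fewer cells with EHF RNA from less EHF RNA per cell. EHF (ENSG00000135373) lies on chromosome 11 of hg19, from 34642640 to 34682604.

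The sequence upstream of the members that rose or fell is shown with that of ETV1 because the ETS core, GGAA or TTCC on the other strand, is the site these factors bind, and because ETV1 is known as a target of the repressor CIC. The 250 bases before the RefSeq start were read from RefSeq (GRCh38.p14) for the 7 members that the promoter table lists (ETV1, ETS2, ELK1, ELK3, ELF1, ELF3, and EHF), over 17 starts, of which 9 hold no annotated exon base in the window. The farthest upstream start is shown for ETS2 (chr21:38804933-38805182, plus strand), EHF (chr11:34624007-34624256, plus strand), and ETV1 (chr7:13991426-13991675, minus strand), each 5′ to 3′. Capitals mark the ETS core in ETS2 and EHF, and the CIC site in ETV1.
ETS2: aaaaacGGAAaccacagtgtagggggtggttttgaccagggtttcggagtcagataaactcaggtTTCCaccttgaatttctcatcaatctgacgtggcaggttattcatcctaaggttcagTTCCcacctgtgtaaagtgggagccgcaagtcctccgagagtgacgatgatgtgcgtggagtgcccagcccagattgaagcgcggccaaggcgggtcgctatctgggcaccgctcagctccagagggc
EHF: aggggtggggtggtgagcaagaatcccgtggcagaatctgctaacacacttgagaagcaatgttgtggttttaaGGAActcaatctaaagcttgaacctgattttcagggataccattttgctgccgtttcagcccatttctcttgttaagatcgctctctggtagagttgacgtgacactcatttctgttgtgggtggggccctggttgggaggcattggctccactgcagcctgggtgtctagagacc
ETV1: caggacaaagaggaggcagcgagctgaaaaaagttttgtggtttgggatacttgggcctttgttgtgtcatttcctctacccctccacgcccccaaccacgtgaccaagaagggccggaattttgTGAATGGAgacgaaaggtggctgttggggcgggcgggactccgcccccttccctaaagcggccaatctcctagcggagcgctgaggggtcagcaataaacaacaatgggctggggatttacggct
ETS2 held 3 ETS cores in this window and 6 at its other start, and EHF held 1 in this window and 0 at its other start, where the median over 34796 promoters of the same length was 3 and 92.8% held at least 1. ETV1 held 1 CIC site, TGAATGGA, which began 125 bases before the start. The sites searched for CIC on both strands were TGAATGAA, TGAATGGA, TCAATGAA, and TCAATGGA, and 3.17% of all promoters held one. Some windows overlap. None (0) of the other 16 held a CIC site, and 0 of the 17 held the longer ETS site CCGGAAGT (3.41% of all promoters), the AP-1 site TGANTCA (6.59%), or the SRF site of the FOS promoter, searched as 1 fixed run of 10 letters (0.0316%). These matches describe the letters only.

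ETV1, ETV4, and ETV5 form the PEA3 subfamily, whose transcription follows ERK activity in many cells. None (0) of these 3 passed the cutoffs between 6 h and 24 h, beside a background of 17.4% called higher and 17.7% lower. With so few genes, a count of 0 is not set apart from that background. ETV5 had 1326 and 1392 normalized counts at 6 h and 1457 and 1555 at 24 h. The estimate of 0.15 on the log2 scale had a 95% interval from -0.000645 to 0.30 (adjusted P = 0.0744). ETV1 was closer to 0, with 1021 and 1011 normalized counts at 6 h against 1062 and 1041 at 24 h. Although the 24 h libraries lay just above the 6 h libraries, the log2 fold change was 0.050 with a 95% interval from -0.11 to 0.21 (adjusted P = 0.581). The 95% intervals of ETV1 and ETV5 both lie inside -0.5 to 0.5.

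ETV4, the third PEA3 factor, pointed the other way. It had 282 and 205 normalized counts at 6 h and 193 and 165 at 24 h. The 24 h libraries lay below the 6 h libraries, but the 6 h libraries differed 1.37-fold from each other, more than counting error gives, since their Poisson intervals of 249 to 318 and 179 to 235 do not overlap. The log2 fold change was -0.43 (standard error 0.142, adjusted P = 0.00941), with an interval from -0.73 to -0.14, short of the fold cutoff. The result turned on single libraries. The log2 fold change was -0.20 (adjusted P = 0.308) without the first 6 h library and -0.32 (adjusted P = 0.0953) without the second 24 h library, whereas it passed the cutoffs at -0.66 without the second 6 h library and at -0.54 without the first 24 h library. With DESeq2, the adjusted P was 0.0773. The chromosome 17 position of ETV4 in hg19, from 41605212 to 41656988, overlaps DHX8, which had a log2 fold change of -0.15 (adjusted P = 0.0753). The counting program is not given in the sources used here, so reads from overlapping genes cannot be told apart.

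Ratios between members within a library do not depend on how the libraries are scaled. Per kilobase of exon, ETV4 reached 0.349 and 0.242 of the level of ETV5 at 6 h, against 0.218 and 0.175 at 24 h. ETV4 was thus the lesser of the pair throughout, and its ratio to ETV5 was lower in both 24 h libraries, with a mean 0.664 times that at 6 h. Its ratio to ETV1 was 0.753 and 0.554 at 6 h and 0.497 and 0.434 at 24 h. The ratio of ETV5 to ETV1 lay between 2.16 and 2.48 in all libraries, and the time points overlapped. With 2 libraries against 2, an exact permutation test cannot give a two-sided P below 0.333, so these ratios are given as values only. ETV5 on chromosome 3 of hg19, from 185764097 to 185828107, overlaps DGKG, a gene that was called lower (log2 fold change -0.86, adjusted P = 6.24e-07).

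**Figure D2:**
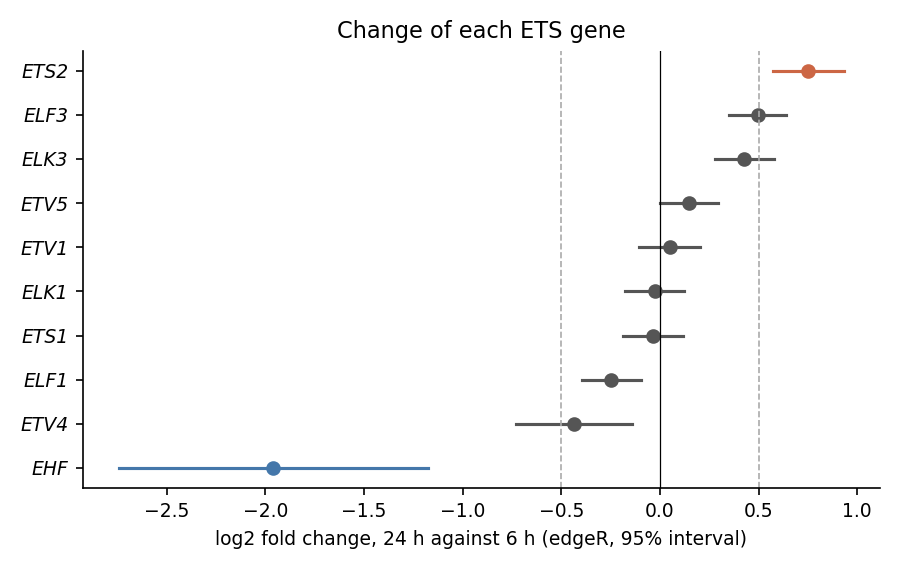
log2 fold change of each ETS gene, 24 h against 6 h of BLU6864 (x axis; points, edgeR estimate; lines, 95% interval), with dashed lines at the fold cutoffs of -0.5 and 0.5. ETS2 (0.75) is the member called higher and EHF (-1.96) the member called lower, and the point of ELF3 (0.496) sits on the upper cutoff.

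ETS1, a direct ERK substrate that regulates matrix protease and invasion genes, was the most abundant member by count. It had 6612 and 6054 normalized counts at 6 h and 6010 and 6367 at 24 h, so the time points overlapped. The difference was -0.033 on the log2 scale (adjusted P = 0.710), with a 95% interval from -0.19 to 0.12. ETS1 and ETS2 are close paralogs, and the ratio of ETS2 to ETS1 per kilobase was 0.139 and 0.133 at 6 h against 0.231 and 0.237 at 24 h. ETS1 (ENSG00000134954) lies on chromosome 11 of hg19, from 128328656 to 128457453.

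ELK1 and ELK3 are ternary complex factors, which sit with SRF at serum response elements and are switched by ERK phosphorylation. ELK1, an activator once phosphorylated, had 1204 and 1255 normalized counts at 6 h and 1202 and 1214 at 24 h, with overlapping libraries. The log2 fold change was -0.026 with a 95% interval from -0.18 to 0.12 (adjusted P = 0.772). ELK3, which represses until it is phosphorylated, had 3444 and 3133 normalized counts at 6 h and 4418 and 4433 at 24 h. The time points stood apart, and the log2 fold change of 0.43 (standard error 0.0723, adjusted P = 1.03e-05) was below the fold cutoff. ELK3 ranged from 0.36 to 0.50 on the log2 scale across the other settings and passed the cutoffs in 0 of them. Per kilobase, ELK3 was 2.09 and 1.83 times the level of ELK1 at 6 h and 2.69 and 2.67 times at 24 h.

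ELF1 is a broadly expressed ETS factor, whereas ELF3 is an epithelial factor that is also induced by inflammatory signals. ELF3 had 3020 and 2891 normalized counts at 6 h and 4227 and 4107 at 24 h, with no overlap. The estimate of 0.496 on the log2 scale (standard error 0.0706, adjusted P = 8.26e-07) fell just short of the fold cutoff and was not called. Upper quartile scaling moved it to 0.53, and so did leaving out the first 6 h library, while leaving out the second 24 h library gave 0.52, and it was called in all 3 of these settings. ELF1 went the other way, with 4359 and 4009 normalized counts at 6 h and 3618 and 3432 at 24 h. The log2 fold change was -0.25 (adjusted P = 0.00418), with a 95% interval from -0.40 to -0.098, and the adjusted P rose to 0.0645 without the second 24 h library and 0.0537 without the first 6 h library. ELF1 overlaps WBP4 on chromosome 13 of hg19, whose log2 fold change was -0.24 (adjusted P = 0.0424). The ratio of ELF3 to ELF1 per kilobase was 0.428 and 0.446 at 6 h and 0.722 and 0.739 at 24 h. ELF3 and EHF are both epithelial factors, and the ratio of ELF3 to EHF was 95.4 and 81.6 at 6 h and 434 and 555 at 24 h. The 24 h ratios divide by only 9 and 7 raw counts of EHF, so their size is imprecise. Of the 6 epithelial markers checked beside ELF3 and EHF, KRT7 was called higher (log2 fold change 0.84) and KRT19 was called lower (-1.59). KRT18 was at 0.37 (adjusted P = 0.000185), below the fold cutoff, and KRT8 was at -0.048. EPCAM had 11 and 6 raw counts at 6 h and 1 and 1 at 24 h, and CDH1 had 8 and 3, then 1 and 3. Their part in the values of ELF3 and EHF was not tested.

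Levels between genes were compared as RPKM, the count per kilobase of exon scaled to the TMM-scaled depth, with the length of all annotated exons of a gene joined, which understates genes with long rare exons. At 6 h, ELF1 was at 37.5 and 34.5, ETS1 at 35.4 and 32.4, and ELK3 at 28.4 and 25.8. ELF1 and ETS1 overlapped there and ELK3 lay below both. At 24 h the order of these 3 had changed, with ELK3 at 36.4 and 36.5, ETS1 at 32.1 and 34.1, and ELF1 at 31.1 and 29.5, each apart from its neighbour. ELF3 followed at 16.1 and 15.4 at 6 h and 22.5 and 21.8 at 24 h, and ELK1 at 13.5 and 14.1, then 13.5 and 13.7. The means of the other members over all libraries were 9.49 for ETV5, 6.17 for ETS2, 4.12 for ETV1, and 0.112 for EHF, while ETV4 was at 3.07 and 2.23 at 6 h and 2.10 and 1.80 at 24 h. Of the genes tested, 89.6% had a lower level than ETS1 and 3.20% a lower level than EHF. ETS2 exceeded ETV1 at both times, with 4.91 and 4.30 against 4.07 and 4.03 at 6 h, and 7.42 and 8.06 against 4.23 and 4.15 at 24 h.

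**Figure D3:**
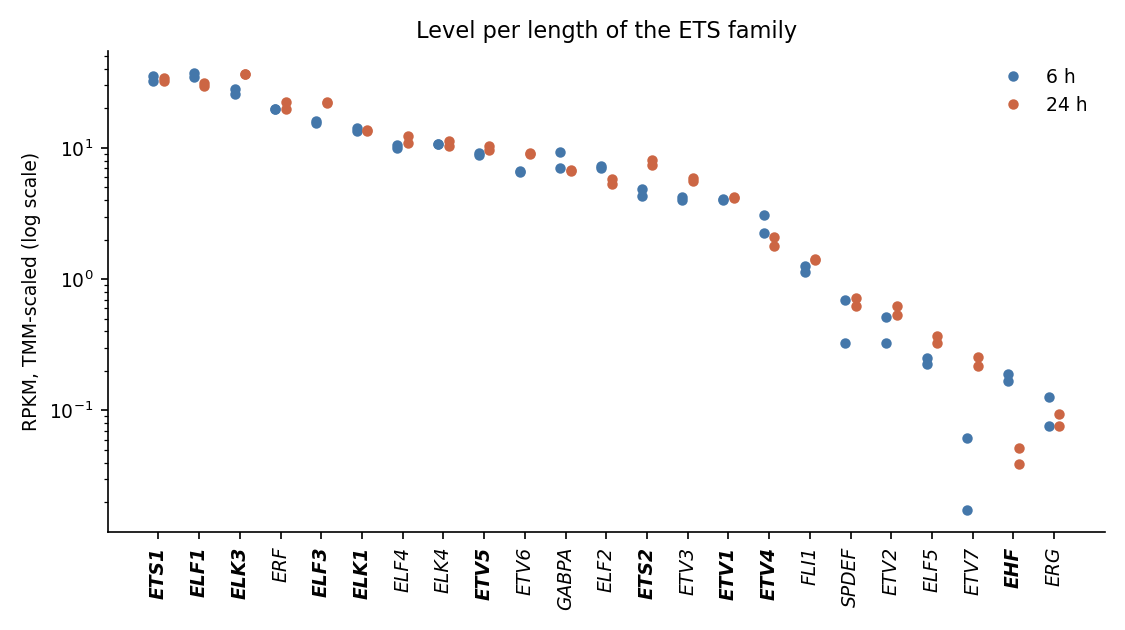
Level of the 23 tested ETS family genes in RPKM, the count per kilobase of exon at equal depth (y axis, log scale), 1 point per library, ordered by the mean over the 4 libraries, with the 10 members in bold. ETS1, ELF1, and ELK3 lead the family at both times, and EHF, at 0.112 on average, stands near its lower end.

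The members made up most of the ETS transcripts in these cells. Of the summed level per kilobase of all 28 ETS genes, they held between 67.5% and 68.7% in the 4 libraries. The sum itself was 223 and 211 at 6 h and 231 and 236 at 24 h. Within it, the share of ELK3 went from 12.7% and 12.3% to 15.7% and 15.5%, and that of ELF1 from 16.9% and 16.4% to 13.5% and 12.5%. ELF3 went from 7.22% and 7.30% to 9.72% and 9.25%, whereas ETS1 held 15.9% and 15.4%, then 13.9% and 14.4%.

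Of the 18 remaining ETS genes, 13 were tested, and edgeR called 1 higher and 0 lower, beside a background of 17.4% and 17.7%. At an unadjusted P under 0.05, 6 were higher and 2 lower, where the shares of all genes tested were 34.4% and 33.9%. DESeq2, run without the filter on low counts, called 0 in either direction. Its background was 12.3% higher and 12.8% lower of 16333 genes, so it is not the same set of genes as in edgeR. The called gene was ETV7, an interferon-inducible repressor, with 1 and 4 raw counts at 6 h and 16 and 14 at 24 h. The log2 fold change of 2.48 (standard error 0.605, adjusted P = 0.000807) rests on those few reads, and ETV7 was not called with DESeq2 or without the first 6 h library. ETV3 and ETV6, which are repressors, had log2 fold changes of 0.49 (adjusted P = 6.38e-06) and 0.46 (adjusted P = 2.57e-06), under the fold cutoff. The log2 fold change of ETV3 exceeded 0.5 with upper quartile scaling, where it was called. It also exceeded 0.5 without the second 24 h library and without the first 6 h library. ELF2, the close relative of ELF1, had the lowest value at -0.37 (adjusted P = 8.43e-05), and ELK4, the third ternary complex factor, was at 0.025 (adjusted P = 0.773). SPIB, ETV3L, SPI1, and FEV had at most 3 counts in each library.

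Genes known to act on ETS factors were described next, as 20 listed symbols, chosen with earlier results of these data known. Of the listed symbols, 19 were tested, with RFWD2 standing for COP1. Of these, 3 were called higher and 2 lower, beside a background of 17.4% and 17.7%. With an adjusted P under 0.05 there were 13 higher and 2 lower, beside 33.0% and 32.6%, and the median log2 fold change was 0.29. The kinase gene MAPK3 was below the fold cutoff, with a log2 fold change of 0.30 (adjusted P = 0.000977). CIC, the repressor of ETV1, ETV4, and ETV5 that ERK releases from DNA, had 3325 and 3599 normalized counts at 6 h and 3399 and 3950 at 24 h. The time points overlapped (log2 fold change 0.086, adjusted P = 0.339). The paralogous partners of CIC moved in opposite directions. ATXN1L rose from 1209 and 1208 to 2109 and 2176 normalized counts, a log2 fold change of 0.83 (adjusted P = 8.06e-11). ATXN1 fell from 1733 and 1885 to 989 and 1089, a log2 fold change of -0.80 (adjusted P = 5.63e-10).

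SRF, the partner of the ELK factors, had a log2 fold change of 0.27 (adjusted P = 0.00248), below the fold cutoff. MKL1, a coactivator that competes with ELK factors for SRF, rose with a log2 fold change of 0.65 (adjusted P = 8.87e-08). Among the ID proteins, which can block DNA binding by ternary complex factors, ID1 rose by 0.53 on the log2 scale (adjusted P = 3.12e-07), but was not called with scaling by library size alone or without the first 6 h library. ID3 fell by 1.31, from 166 and 202 to 80.7 and 68.1 normalized counts (adjusted P = 8.29e-08). RFWD2, the ubiquitin ligase that marks PEA3 factors for degradation, had a log2 fold change of -0.097 (adjusted P = 0.233), and its adaptor DET1 had 0.47 (adjusted P = 0.00237).

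Of 18 genes whose RNA commonly follows ERK activity, 11 were called higher and 1 lower, beside a background of 17.4% and 17.7%, with a median log2 fold change of 0.73. SPRY1, SPRY2, and DUSP4 of this list are named in the study for their rise in these libraries. The whole list was also chosen with earlier results of these data known, so the count is not independent evidence of its direction. EPHA4, an Eph receptor, and MYC had the largest changes, with log2 fold changes of 2.52 (adjusted P = 7.28e-14) and 2.51 (adjusted P = 2.35e-20). FOSL1, an AP-1 subunit, had 1.02 (adjusted P = 4.17e-12), and CCND1, a D-type cyclin, had 0.73 (adjusted P = 9.01e-10). The remaining genes called higher were SPRY2 (1.46), SPRY1 (1.23), EPHA2 (0.96), IL17RD (0.86), DUSP4 (0.76), SPRED2 (0.73), and DUSP5 (0.63), of which the Sprouty, SPRED, and DUSP proteins restrain ERK signalling. DUSP4 was not called with DESeq2, without either 24 h library, or without the second 6 h library. The called fall was in PHLDA1, with a log2 fold change of -0.71 (adjusted P = 2.94e-09). DUSP6, the ERK phosphatase, had 1645 and 1541 normalized counts at 6 h and 1195 and 1077 at 24 h. This difference, -0.49 on the log2 scale (adjusted P = 2.68e-06), was just short of the cutoff. The PEA3 factors, with log2 fold changes of 0.050, -0.43, and 0.15, were below the median of this list, and the difference from it was not tested.

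Of 18 genes described as targets of ETS factors, 12 were tested, and both edgeR and DESeq2 called 0 higher and 6 lower, with a median log2 fold change of -0.49 in edgeR. The target list was likewise chosen with earlier results of these data known, so these counts are not independent evidence of a direction. The background was 17.4% higher and 17.7% lower in edgeR, and 12.3% and 12.8% of the 16333 genes of DESeq2, run without the filter. With a P under 0.05, adjusted or not, there were 3 higher (SRF, VEGFA, and EGR1) and 7 lower, where the adjusted background was 33.0% and 32.6% and the unadjusted background 34.4% and 33.9%. Among these were the matrix proteases, which ETS1 and the PEA3 factors can activate together with AP-1. MMP1 had the largest fall, from 6866 and 7219 normalized counts to 288 and 268, or -4.66 on the log2 scale (standard error 0.0889, adjusted P = 1.93e-24). MMP3 was at -3.21 (adjusted P = 5.18e-13) and MMP9 at -2.57 (adjusted P = 1.25e-17). EGR2 and FOS, whose promoters carry serum response elements, had -3.21 (adjusted P = 1.96e-08) and -1.75 (adjusted P = 7.24e-10), whereas EGR1, another such gene, had 0.30 (adjusted P = 0.0467). EGR2 rests on 45 and 56 raw counts at 6 h and 6 and 5 at 24 h. TGFBR2, a TGF-beta receptor whose promoter ELF3 can activate, had -0.54 (adjusted P = 8.31e-07), while ELF3 itself was at 0.496. Among the epithelial genes of the list, KRT8 had between 1720 and 1811 raw counts and overlapped between the time points, TGM3 had at most 1 count, and SPRR1A, SPRR1B, and SPRR2A had no count in any library.

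**Figure D4:**
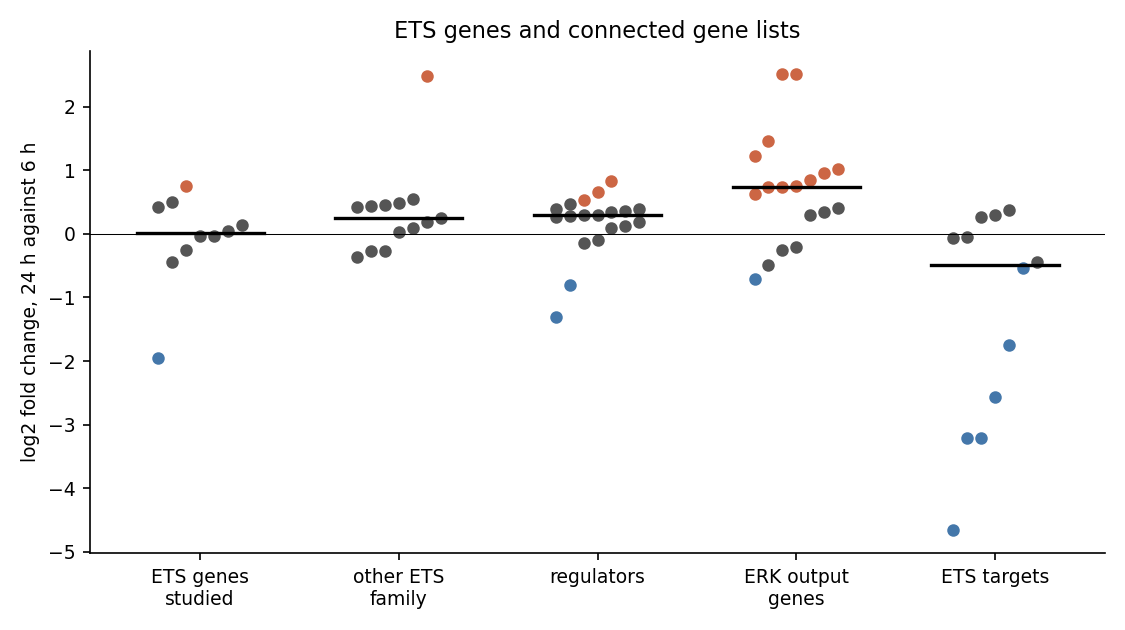
log2 fold change of every tested gene, 24 h against 6 h (y axis), for the 10 ETS genes and 4 connected lists, with black bars at the medians, orange points for genes called higher, and blue points for genes called lower. The medians are 0.012 for the ETS genes, 0.25 for the remaining ETS family, 0.29 for the regulators, 0.73 for the ERK output genes, and -0.49 for the ETS targets.

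The genes most like ETS2 over the 4 libraries, by the Euclidean distance of centred log2 CPM among 4684 genes of similar abundance, were CCDC8, NRBP2, and TECPR2, with distances of 0.0694, 0.0797, and 0.0800. For EHF, among 1144 genes, they were HIST1H3G, FCRLA, and CREG2, with distances of 0.13, 0.199, and 0.238.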

How the data were processed

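Libraries of TPC1 RNA, 2 after 6 h and 2 after 24 h of BLU6864, were grouped by the sample titles. The submitters' processing notes name STAR 2.3, DESeq2, and the hg19 build, while the methods give another STAR release. The labels also describe single-end reads, whereas the methods describe a paired-end flow cell. The authors deposited raw counts per gene, a normalized signal (the count divided by a size factor per library) with its mean, and their own comparison, namely a log2 fold change, its standard error and Wald score, and P-values. Only the raw counts were used here. The strand setting and counting program are not given in the sources used here.

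Raw counts were filtered with filterByExpr, TMM-normalized, and tested across 12876 genes with the quasi-likelihood test of edgeR 4.0.16 in R 4.3.3, with time as the single factor and Benjamini-Hochberg adjustment over all genes tested. Standard errors and intervals used the F statistic. All adjusted P values in the text are from this fit unless DESeq2 (1.42.0), the alternative test, or a left-out library is named. Cutoffs took the limits that the methods state for falls and applied them in both directions. Exon lengths came from GENCODE v44, matched by Ensembl ID for 19460 genes, and promoters from RefSeq. ETV4, ETV5, and ETS1 were not in the promoter table used here. Gene positions follow the table (hg19), and RefSeq windows are in GRCh38.p14. Every member was named. Of each other list, the rule took called genes and those with the largest rise and fall, at most 6 a list, and CIC, SRF, and MAPK3. Any other gene was picked with its values in view, and some genes of the lists are not reported here. The members and gene lists were chosen with earlier results of these data known. The procedure was tested on simulated data. Plots were drawn with matplotlib 3.10.9.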

Additional observations from a re-analysis of the deposited data

How the results depend on the processing

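Other scalings (library size alone, upper quartile), DESeq2, 2 other filters on low counts, 2 other call rules, the replicate block, and fits that each left out 1 library were run. Fits without a library leave 1 in its group, which was assumed to vary like the others. The direction was kept for 8 of the 10 members. ELK1, near 0, was at 0.0036 with upper quartile scaling and ranged from -0.056 to 0.0012 (the latter without the second 6 h library) when 1 library was left out. ETS1 ranged from -0.10 to 0.031, and was at 0.016 without the first 24 h library and 0.031 without the first 6 h library. Upper quartile scaling moved the median of all genes to 0.033 and library size alone to -0.040, and the share of called genes that were higher was between 44.8% and 53.0% under the settings run.

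The members called higher numbered 1 in the main comparison, 2 with upper quartile scaling (with ELF3), from 1 to 2 without a library, and 3 at an adjusted P under 0.05 or 0.01 with no limit on the fold change. Those called lower numbered 1, from 1 to 2 without a library, 3 under the adjusted P rules, and 0 with at least 10 counts in every library, a filter that removes EHF. Called regulators that were higher numbered 3, 2 with library size alone, from 2 to 5 without a library, 13 at an adjusted P under 0.05, and 12 at 0.01. ERK output genes called lower numbered 1, from 1 to 2 without a library, 2 with library size alone (with DUSP6), and 3 under both adjusted P rules. ETS targets called higher were 0, 3 at an adjusted P under 0.05, and 2 at 0.01. Of the remaining ETS family, the number called higher was 1, 0 with DESeq2, 0 with at least 10 counts in every library, 2 with upper quartile scaling, from 1 to 2 without a library, 4 at an adjusted P under 0.05, and 3 at 0.01, and the number called lower was 0, 1 with no filter on low counts (SPIC), 2 at an adjusted P under 0.05, and 1 at 0.01. The cause of these moves was not tested, other than the looser rule and the genes a filter removes. Over all 12876 genes, 2238 were called higher and 2278 lower in the main comparison. The counts were 2030 and 2499 with library size alone and 2381 and 2115 with upper quartile scaling. They were 4247 and 4196 at an adjusted P under 0.05, and 3599 and 3579 at 0.01. With at least 10 counts in every library, they were 2103 and 2099 of 12221 genes, and with no filter 2314 and 2331 of 16333.

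Replicate numbers occur at both time points, but nothing says what they mark, and the deviations of same-numbered libraries correlated at 0.0844 across genes. With the replicate number as a block, 1 member was called higher and 1 lower, and over all genes 2283 were higher and 2313 lower, against 2238 and 2278 without it. At 7 to 34 counts per library, EHF was the member most limited by depth.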
